A study of Mus musculus with 37 samples.

Results

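The regions described here are 2707 promoters whose DNase I hypersensitive site first appeared in the lists of mouse embryos at the 8-cell stage, was listed again in the morula, and was not in the authors' table of sites lowered by Oct4 knockdown. They were chosen by list membership: each was in the 8-cell and morula lists, was absent at identical coordinates from the 1-cell, 2-cell and 4-cell lists, carried the authors' class Promoter, and was absent from the Oct4 table. They made up 2707 of the 10050 promoter-class sites and of the 22621 sites in any of the 5 stage lists. They are called member promoters here. Listing at these stages, class and status in the Oct4 table are therefore given by the choice and are not results.

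The series profiled open chromatin by DNase-seq for small inputs in 32 of its 37 samples, with 2 samples per group. The stage embryos were obtained by in vitro fertilization of oocytes from superovulated BDF1 females, aged 8 weeks, and by the strain labels JF1 sperm was used. They were taken at 12 h (1-cell), 30 h (2-cell), 46 h (4-cell), 60 h (8-cell) and 78 h (morula) after fertilization, with 100, 100, 50, 25 and 10 embryos per library. By the protocol the 1-cell embryos had BDF1 sperm, which disagrees with their label, and were digested with more concentrated DNase I. Oct4 knockdown embryos (siOct4) and their siControl embryos were BDF1 by BDF1, were taken at 60 h, and had 25 embryos per library. Oocytes came from 14-day-old BDF1 females (150 cells per library), sperm from BDF1 males (5000 cells), and maternal and paternal pronuclei, of strain BDF1, were isolated from zygotes at stage PN3 (7.5 h, 140 to 150 pronuclei) and PN5 (12 h, 170 pronuclei). All libraries are pools of many embryos or cells, so a listed site can reflect a part of the pool. Each group came as 1 list of sites with positions on mm9, so no site has a replicate error and the read depth of these libraries is unknown.

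A DNase I hypersensitive site is a short stretch of DNA that is depleted of nucleosomes and open to the nuclease, and at a promoter it marks the place where general transcription factors and RNA polymerase II can assemble. In the mouse zygote the maternal and paternal genomes first lie in separate pronuclei, minor transcription starts before the first division, and the main wave of genome activation follows at the 2-cell stage. Oct4 (Pou5f1) is a POU-domain pluripotency transcription factor that binds mostly at enhancers. No gene names accompany the sites and none were assigned, so the sites are given by position, and the stages and the knockdown were not checked on marker genes or on Oct4 itself.

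The first comparison asked whether promoters first listed in cleavage embryos at the 8-cell stage had been listed earlier in the separate pronuclei or in the growing oocyte, whose libraries took no part in the choice of sites. Of the 2707, 1260 overlapped a site of at least 1 of the 4 pronuclear lists by 1 bp or more (46.5%, exact 95% interval 44.7 to 48.4). Over all stage sites this share was 24.2%, and over all promoter-class sites, member promoters included, it was 42.2%. The share among member promoters was thus close to that of promoters in general. It depends on the width of the pronuclear sites counted, and was 25.0% with sites of at least 200 bp. For the oocyte list the count was 104 (3.84%, interval 3.15 to 4.64), against 3.69% over all stage sites and 7.40% over all promoter-class sites. Intervals here and below are Clopper-Pearson intervals and cover counting error only.

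The 4 pronuclear lists held different numbers of member promoters. The maternal PN5 list held 878 (32.4%, interval 30.7 to 34.2), the maternal PN3 list 756 (27.9%, 26.2 to 29.7), the paternal PN3 list 614 (22.7%, 21.1 to 24.3) and the paternal PN5 list 402 (14.9%, 13.5 to 16.2). Over all promoter-class sites, member promoters included, the shares in the same order were 31.0%, 27.7%, 24.1% and 17.8%. Member promoters were thus near promoters in general in the maternal lists and the paternal PN3 list. They were somewhat lower in the paternal PN5 list, which was not tested. The order of the lists is also that of their lengths, which were 4794, 3948, 3681 and 2667 sites, so it was not tested. Read the other way, 19.2% of the maternal PN3 sites, 18.3% of the maternal PN5 sites and 16.7% of the paternal PN3 sites overlapped a member promoter, as did 400 of the 2667 paternal PN5 sites. The sperm list, with 87 sites, held 0 of 2707, which allows a share of up to 0.111% by the limit of 3 counts and 0.136% by the Clopper-Pearson interval. It also held 0 of the 10050 promoter-class sites, so the absence from sperm is shared by all listed promoters.

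**Figure D1:**
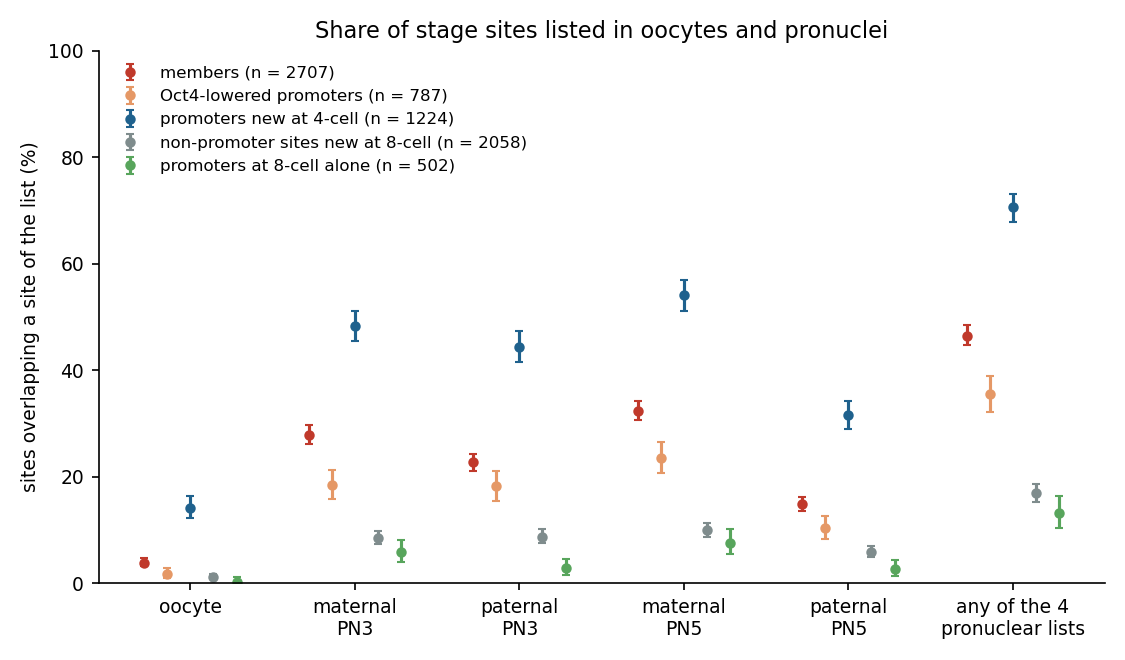
Share of sites (%, y axis) overlapping a site of the oocyte list, of each pronuclear list or of any pronuclear list (x axis), for the member promoters and for 4 other groups of stage sites. Points are shares and bars are exact 95% intervals over sites. Member promoters (46.5% in any pronuclear list) lie below promoters first listed at the 4-cell stage (70.6%) and above the other groups in every column.

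Promoters that appeared 1 stage earlier were in the pronuclear lists more often. Among the 1224 promoters first listed at the 4-cell stage and kept through the 8-cell stage to the morula, 864 overlapped a pronuclear site (70.6%, interval 67.9 to 73.1). The difference from the member promoters was -24.0 percentage points (odds ratio 0.363, adjusted p = 4.04e-45 by Fisher's exact test, taken as two-sided and adjusted over all 8 tests of this kind). In the oocyte list were 174 of them (14.2%) against 3.84% of member promoters (odds ratio 0.241, adjusted Fisher's exact p = 7.71e-29). By the choice of groups, promoters first listed at the 4-cell stage were in more stage lists than member promoters. Stage of first listing and number of stage lists can therefore not be told apart here. The units of all 8 tests are sites, so the tests hold no replicate of any stage, and sites of 1 promoter count separately.

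Promoters with the same stages of listing that were lowered after Oct4 knockdown were in the pronuclear lists less often than member promoters. Of the 787 Oct4-lowered promoters, 280 overlapped a pronuclear site (35.6%, interval 32.2 to 39.0), a difference of 11.0 percentage points (odds ratio 1.58, adjusted Fisher's exact p = 5.87e-08). In the oocyte list were 13 of them (1.65%, interval 0.882 to 2.81), against 104 of the 2707 member promoters (odds ratio 2.38, adjusted Fisher's exact p = 0.00217). Member promoters and Oct4-lowered promoters had the same median width of 210 bp and the same quartiles of 190 and 270 bp. With sites compared within classes of width, the odds ratio for the pronuclear lists was 1.58 as before.

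Sites of other classes with the same history were listed in pronuclei less often than member promoters. Of the 2058 exon, intron and intergenic sites first listed at the 8-cell stage, kept, and absent from the Oct4 table, 348 overlapped a pronuclear site (16.9%, interval 15.3 to 18.6), and member promoters were higher by 29.6 percentage points (odds ratio 4.28, adjusted Fisher's exact p = 8.08e-106). By class the share was 21.3% of 202 exon sites (interval 15.9 to 27.6), 18.5% of 1191 intergenic sites (16.3 to 20.8) and 12.8% of 665 intron sites (10.3 to 15.6). The oocyte list held 23 of the 2058 (1.12%, odds ratio 3.54, adjusted Fisher's exact p = 2.73e-09). In any pronuclear list were 42.2% of all promoter-class sites and 24.2% of all stage sites. Promoters in general were thus listed there more often than other classes. The gap is not shown to be particular to member promoters, and the share over all non-promoter sites was not computed.

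Promoters listed at the 8-cell stage alone, and not in the morula, also had a lower share than member promoters. By the choice of groups they were in fewer stage lists, which cannot be told apart from loss by the morula. Of these 502 promoters, 66 overlapped a pronuclear site (13.1%, interval 10.3 to 16.4; odds ratio 5.75, adjusted Fisher's exact p = 3.87e-49), and 1 overlapped an oocyte site (0.199%, odds ratio 20.0, adjusted Fisher's exact p = 4.53e-07). They were narrower, with a median width of 170 bp, and 44.0% of them were at the smallest listed width of 150 bp, against 7.02% of member promoters. Within classes of width the odds ratio for the pronuclear lists was 5.73. With sites within 500 bp counted it was 2.21 (34.7% against 54.0%), and 59.8% of these promoters had another stage site within 1 kb. The oocyte comparison was lost with oocyte sites of at least 200 bp (odds ratio 5.05, adjusted Fisher's exact p = 0.111). Member promoters are 2707 of the 3067 promoters that were new at the 8-cell stage and absent from the Oct4 table, of which 360 were not kept. Of the 929 new promoters that Oct4 knockdown lowered, 787 were kept and 142 were not.

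Where a member promoter overlapped a pronuclear site, the centres lay a median of 30.0 bp apart in each of the 4 lists, with upper quartiles between 50.0 and 60.0 bp. Overlap itself bounds this distance by the widths of the sites, and the median was 30.0 bp for non-promoter sites as well. The nearest maternal PN5 centre was under 250 bp away for 921 member promoters, between 250 and 1000 bp for 167, and between 1000 and 5000 bp for 46. A member promoter therefore mostly coincided with a pronuclear site or had none nearby. For the 2058 non-promoter sites the same counts were 211, 44 and 121, so fewer coincided and more had a maternal PN5 site at 1000 to 5000 bp.

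**Figure D2:**
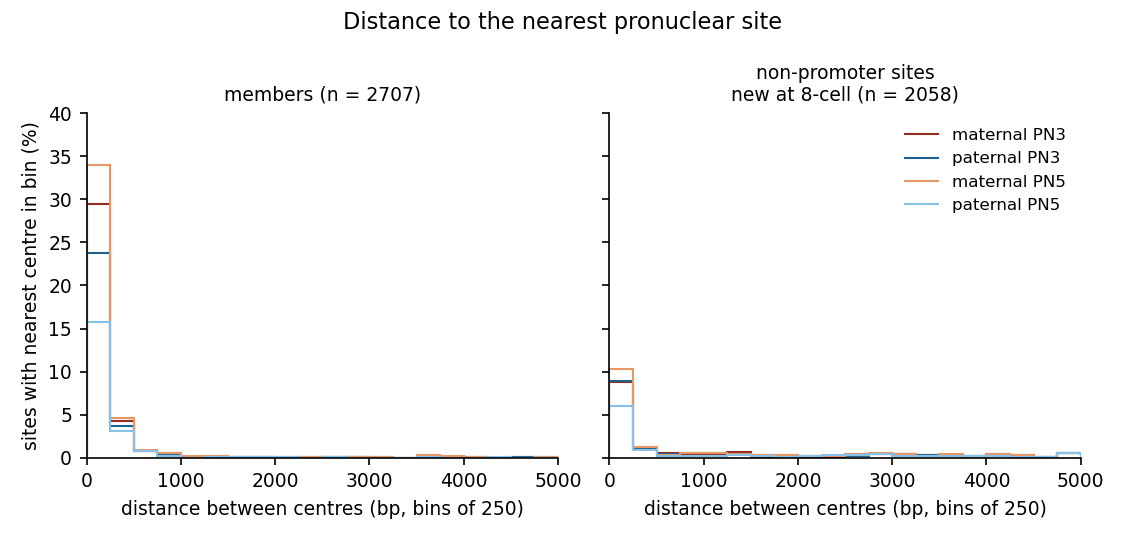
Distance from the centre of each site to the nearest centre in each pronuclear list (x axis, bp, bins of 250 bp) against the share of sites in that bin (y axis, %), for member promoters on the left and non-promoter sites on the right. The first bin holds 34.0% of member promoters for the maternal PN5 list, and the bins beyond 1000 bp are near 0.

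The pronuclear lists that held a member promoter varied widely. Of the 2707, 1447 were in no pronuclear list, 511 in 1, 315 in 2, 227 in 3 and 207 in all 4. The most frequent combination was the maternal PN5 list alone (239), followed by all 4 lists (207), maternal PN3 alone (162), maternal PN3 with maternal PN5 (132) and the 3 lists other than paternal PN5 (123). The paternal PN5 list alone held 20. Listing in all 4 was seen for 7.65% of member promoters, for 20.5% of promoters first listed at the 4-cell stage, for 4.32% of Oct4-lowered promoters and for 0.398% of promoters listed at the 8-cell stage alone. These shares were not tested. Neither they nor the counts by combination were computed over all promoter-class sites, so they are not shown to be particular to member promoters.

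**Figure D3:**
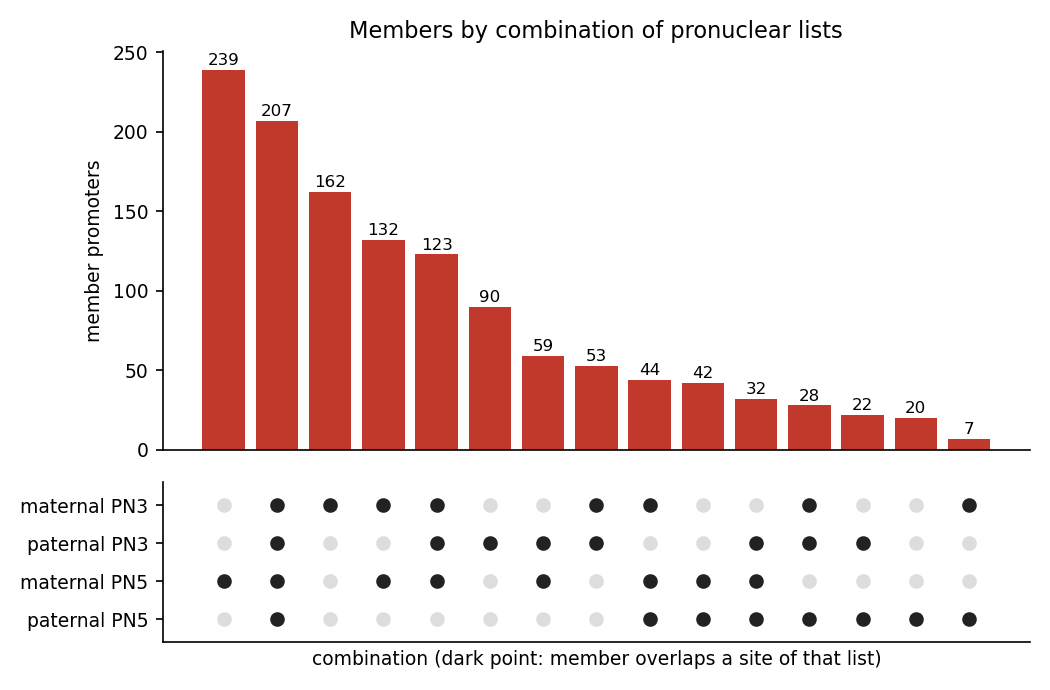
Number of member promoters (y axis) for each combination of pronuclear lists that held them, with the combination shown by dark points below each bar. Maternal PN5 alone (239) and all 4 lists (207) are the tallest bars, and the 1447 member promoters in no pronuclear list are left out.

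By parental genome, 959 member promoters were listed in at least 1 pronucleus at PN3. Of these 411 were on both genomes (42.9%, interval 39.7 to 46.1), 345 on the maternal alone (36.0%) and 203 on the paternal alone (21.2%). At PN5, 955 were listed, of which 325 were on both (34.0%, 31.0 to 37.1), 553 on the maternal alone (57.9%) and 77 on the paternal alone (8.06%). The paternal list was shorter at PN5 than at PN3 and the maternal list longer, and the part of list length in this shift was not tested. Over both times, 595 of the 1260 were listed on both genomes (47.2%, interval 44.4 to 50.0). Among listed Oct4-lowered promoters this share was 44.6% (38.7 to 50.7), and among listed non-promoter sites 42.0% (36.7 to 47.3). It was 62.7% (59.4 to 66.0) for promoters first listed at the 4-cell stage and 21.2% for promoters at the 8-cell stage alone. At PN5 the maternal genome alone held 59.3% of the listed Oct4-lowered promoters and 50.8% of the listed non-promoter sites. It held 46.2% of the listed promoters from the 4-cell stage and 71.1% of those at the 8-cell stage alone. From PN3 to PN5, 506 of 756 maternal (66.9%) and 289 of 614 paternal (47.1%) member promoters were listed again. The maternal and paternal shares were 63.4% and 39.9% for Oct4-lowered promoters and 80.0% and 56.1% for promoters first listed at the 4-cell stage. They were 63.4% and 42.2% for non-promoter sites, and 31.0% and 35.7% for the few promoters at the 8-cell stage alone. No share over all promoter-class sites was computed, and none of these differences was tested.

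The 104 member promoters in the oocyte list were mostly found in pronuclei as well. The maternal PN5 list held 76 of them (73.1%, interval 63.5 to 81.3), the maternal PN3 list 73 (70.2%, 60.4 to 78.8), the paternal PN3 list 61 (58.7%, 48.6 to 68.2) and the paternal PN5 list 47 (45.2%, 35.4 to 55.3). In all, 90 were in at least 1 pronuclear list and 36 were in all 4. Of the 174 oocyte-listed promoters first listed at the 4-cell stage, 87 were in all 4. So were 4 of 13 Oct4-lowered promoters, 4 of 23 non-promoter sites and 0 of 1 promoter at the 8-cell stage alone. These shares were not computed over all oocyte-listed promoters, so they are not shown to be particular to member promoters. Why sites were listed both in oocytes and in paternal pronuclei was not tested.

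PN5 pronuclei and whole 1-cell embryos were both taken at 12 h. By the choice of sites 0 member promoters were in the 1-cell list at identical coordinates, while 955 overlapped a PN5 site by 1 bp or more. These measures differ, and overlap by 1 bp with the 1-cell list is not given. The 1-cell list held 844 sites and the maternal PN5 list 4794. First listing at the 8-cell stage thus means absence at identical coordinates from 3 lists of embryos, of 844, 1006 and 2957 sites. It does not show that a promoter was closed in the zygote. The strength of DNase I digestion and the number of embryos differed between these libraries. By the labels, though not by the protocol, the sperm strain also differed between 1-cell embryos and pronuclei. The part of these differences in the lengths of the lists was not tested.

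Width and neighbours come from the same site calls as the choice of the promoters, so they are given as a description with no test. Member promoters were 150 to 610 bp wide, with a median of 210 bp and quartiles of 190 and 270 bp, and 1749 (64.6%) were at least 200 bp wide. Over all promoter-class sites the median was 210 bp and 59.1% were at least 200 bp wide, and among promoters first listed at the 4-cell stage the median was 230 bp and the share 81.9%. From 170 bp upward, wider member promoters had a smaller share in pronuclear lists. The share was 54.0% of 768 promoters of 170 to 190 bp (interval 50.4 to 57.6), 49.4% of 805 of 210 to 230 bp, 42.8% of 514 of 250 to 290 bp and 34.9% of 430 of 310 bp or more (30.4 to 39.6). The 190 promoters of 150 bp stood at 40.5% (33.5 to 47.9). Oct4-lowered promoters stood at 45.9% at 170 to 190 bp (39.3 to 52.7) and 16.8% at 310 bp or more (10.7 to 24.5). The share was also smaller in the widest class than at 170 to 190 bp for non-promoter sites (22.9% and 12.8%), for promoters first listed at the 4-cell stage (74.8% and 57.0%, with 81.3% at 210 to 230 bp) and for promoters listed at the 8-cell stage alone (18.7% and 4.55%, the latter 1 of 22). Over all promoter-class sites it was 40.8% at 170 to 190 bp (38.9 to 42.8) and 53.2% at 310 bp or more (50.7 to 55.7), and 18.4% at 150 bp. Differences in slope between groups were not tested.

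**Figure D4:**
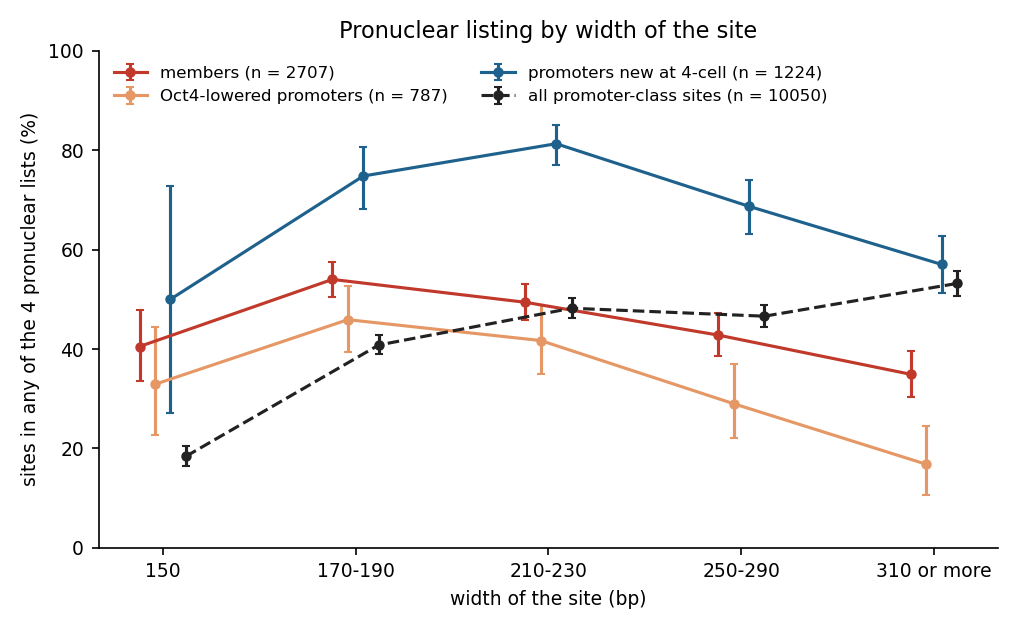
Share of sites in any pronuclear list (y axis, %) by width of the stage site (x axis, bp), for member promoters, Oct4-lowered promoters, promoters first listed at the 4-cell stage and all promoter-class sites, with exact 95% intervals over sites. Member promoters go from 54.0% at 170 to 190 bp to 34.9% at 310 bp or more, while all promoter-class sites go from 40.8% to 53.2% over the same classes.

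The 10 widest member promoters were 530 to 610 bp wide, and 8 of them were in no oocyte or pronuclear list. Of all 2707 member promoters, 1433 (52.9%) were in no oocyte, sperm or pronuclear list. At 310 bp or more, 34.9% of member promoters and 53.2% of all promoter-class sites were in a pronuclear list. Nothing is read from the count of 8 among 10 sites. The widest, chr11:30098081-30098690 (610 bp), was 171790 bp from the nearest site of an earlier embryo list. Next were chr5:73797441-73798010 and chr19:46402821-46403390, both 570 bp wide, and then chr9:53618941-53619490 and chr12:106248201-106248750, both 550 bp wide, all in no oocyte or pronuclear list. The other two of the 10 were each in 1 pronuclear list, chr8:108734501-108735050 in maternal PN3 and chr10:120202281-120202830 in maternal PN5. No site of the 10 was in the oocyte list.

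At the other end were 36 member promoters found in the oocyte list and in all 4 pronuclear lists. The widest of these was chr10:81007861-81008210 (350 bp), followed by chr14:15535141-15535430 (290 bp). The next were chr1:65233061-65233330, chr2:165151981-165152250 and chr4:123582021-123582290, each 270 bp wide. These 5 lay between 12190 and 380750 bp from the nearest earlier embryo site, and 1 of them, on chromosome 1, was 7530 bp from a site of the Oct4 table.

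Another stage site of any kind lay within 1 kb of 1103 member promoters (40.7%), with a median gap of 4670 bp, against 40.8% of all promoter-class sites. Another member promoter lay within 1 kb of 308 of them (11.4%), and a member promoter lay within 1 kb of 11.4% of all promoter-class sites. With member promoters at most 1 kb apart joined, they formed 2551 loci, of which 2399 held 1 site, 149 held 2, 2 held 3 and 1 held 4. The chain of 4, chr11:69714281-69715330, spanned 1050 bp with sites of 150 to 290 bp, and none of the 4 was in an oocyte or pronuclear list. Of the 6 chains of 3 at gaps of up to 5 kb, the first by chromosome and start are given. One, chr2:90909721-90910850 (1130 bp), was likewise in none, while all 3 sites of the other, chr2:150730381-150735630 (5250 bp), were in pronuclear lists. A site of the 1-cell, 2-cell or 4-cell lists lay within 1 kb of 255 member promoters (9.42%), against 9.28% of all promoter-class sites. These 255 may share a promoter with an earlier site. Of them 37.6% (interval 31.7 to 43.9) were in a pronuclear list, against 47.5% of the remaining 2452 (45.5 to 49.5). The share near such a site was also lower for Oct4-lowered promoters (22.9% against 36.8%) and promoters first listed at the 4-cell stage (68.0% against 70.9%). The same held for non-promoter sites (14.1% against 17.0%) and promoters at the 8-cell stage alone (11.6% against 13.5%). For promoters first listed at the 4-cell stage, such a site can be another site of their own 4-cell list. None of these differences was tested. A site of the Oct4 table lay within 10 kb of 321 member promoters (11.9%), against 11.5% of all promoter-class sites. The shares near a site of the 1-cell, 2-cell or 4-cell lists and near a site of the Oct4 table were both close to those of promoters in general.

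The choice of member promoters rests in part on a threshold in the Oct4 experiment. The authors' deposited table lists only decreased sites, 2643 in all, with a smallest log2 fold of 1.001 (siControl over knockdown), so member promoters have no values there and their change after knockdown is unknown. The Oct4-lowered promoters just outside the choice were chr19:9028081-9028390, chr4:135411781-135412010 and chr16:20097481-20097690, with log2 folds of 1.002, 1.002 and 1.004 in the authors' deposited table. In that table the first had 1.34 and 1.04 RPM (reads scaled to library size) in the siControl libraries and 0.598 and 0.578 RPM in the knockdown libraries. The second had 4.87 and 1.04 RPM in siControl and 1.49 and 1.45 RPM in knockdown in the authors' deposited table, so its groups overlapped. The third had 2.80 and 1.04 RPM against 0.747 and 1.16 RPM in the authors' deposited table, and overlapped as well. In the authors' deposited table the 2 siControl libraries lay above both knockdown libraries in 508 of the 787 Oct4-lowered kept promoters (64.5%), beside 61.9% of the whole table, and nothing is read from these counts because the table was selected on this fold. The 2 siControl libraries also stood apart, with medians of 1.22 and 0.593 RPM over the 787 promoters in the authors' deposited table, against 0.299 and 0.289 RPM in the knockdown libraries. One read was worth 0.122 to 0.149 RPM, so many of these folds rest on few reads.

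Within the Oct4-lowered promoters, the pronuclear share was 38.7% (interval 34.1 to 43.5) of the 434 with a deposited log2 fold from 1 to 1.5, 35.4% (28.7 to 42.4) of the 198 from 1.5 to 2 and 27.1% (20.3 to 34.8) of the 155 at 2 or more. These values describe the table used in the choice and were not tested. The authors' lists do not say how many promoters fell just short of the threshold and so became members.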

How the data were processed

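Open sites were measured by DNase-seq. Per the submitters' processing notes, Bowtie 0.12.9 and the build mm9 were used. Not given in the sources used here are the site caller, its threshold, whether libraries were pooled, and how classes were assigned. The deposited lists hold positions in bases. Starts count from 0 and are printed with 1 added. The Oct4 table holds, per the file headers, a value per library and a log2 fold by the authors. The headers name no unit, and the values were read as RPM set by the authors because 100% are whole multiples of 1 read (tolerance 0.1 reads), which puts the libraries at 6690000 to 8220000 reads. No count test was run, since the table lists only decreased sites. RNA and Nfya tables were not used, because gene positions on mm9 and sequence of that build were not used here. No column of per-sample values outside these groups was used.

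Sites sharing 1 bp or more were counted as overlapping. This step ran in Python 3.11.15 and was tested on simulated data against bedtools 2.31.1. Shares have exact Clopper-Pearson intervals at 95%. For tests between groups, scipy 1.17.1 gave two-sided Fisher's exact p-values, adjusted after Benjamini-Hochberg over 8 tests at a threshold of 0.05. Sites were assigned to width classes of 150, 170 to 190, 210 to 230, 250 to 290 and at least 310 bp for a Mantel-Haenszel odds ratio (statsmodels 0.14.6). The member promoters, comparison groups and measures were chosen with earlier results of these data known. Regions were named by width (the 10 widest, the 5 widest in the oocyte and all pronuclear lists, and the 5 widest in none of these or the sperm list, which are all among the 10), by length of chain (3 chains with most sites, ties taken by chromosome and start) and by smallest fold (3 Oct4-lowered promoters). The rule also asked for members overlapping sperm sites, of which there were 0.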

Additional observations from a re-analysis of the deposited data

How the results depend on the processing

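Over 66 recomputed tests, 65 kept their direction and their side of the threshold, and 0 changed direction. The odds ratio for any pronuclear list ran from 1.46 to 1.72 against Oct4-lowered promoters, from 0.329 to 0.468 against promoters first listed at the 4-cell stage, from 3.85 to 5.00 against non-promoter sites and from 2.21 (within 500 bp) to 8.67 (50% reciprocal overlap) against promoters listed at the 8-cell stage alone. The exception was the oocyte list against promoters listed at the 8-cell stage alone. With oocyte sites of at least 200 bp the odds ratio was 5.05 (Fisher's exact adjusted p = 0.111), and with sites within 500 bp it was 1.61 (Fisher's exact adjusted p = 0.0498). That group held 1 oocyte site, and 0 under 4 alternatives, which leave no finite ratio. The cause was not tested. Comparison within width classes and removal of Oct4-table sites from that group were added after seeing the data.

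The shares of member promoters in single lists depend on how overlap is counted. In the order oocyte, maternal PN3, paternal PN3, maternal PN5 and paternal PN5, they were 2.84%, 23.5%, 20.2%, 28.3% and 13.2% with 50% reciprocal overlap, 6.28%, 34.5%, 28.3%, 39.5% and 19.6% within 500 bp, and 0.997%, 7.46%, 7.39%, 12.6% and 5.13% with early sites of at least 200 bp. With stage sites of at least 200 bp they were 3.14%, 25.9%, 18.9% and 13.5% for the lists other than maternal PN5, whose share stayed within its interval. Merging sites within 1 kb, leaving out sites near an earlier site, and autosomes alone kept all of these shares within their intervals.

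No paired analysis was possible because each group came as 1 list with no value per library, and for the same reason no replicate was left out. Depth is unknown for the lists, so its part in absence from a list was not tested.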

Other observations

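Member promoters were spread over the chromosomes as promoters are. They made up between 23.9% (chromosome 15) and 30.5% (chromosome 17) of the promoter-class sites of the 19 autosomes, with a median of 26.9%, and 26.5% of those on X (77 of 291). The share of member promoters in a pronuclear list ran from 33.6% on chromosome 3 (42 of 125) to 53.9% on chromosome 16 (41 of 76), with a median of 47.4%. Of the 3494 promoters new at the 8-cell stage and kept, the share in the Oct4 table ran from 17.6% on chromosome 9 to 29.1% on chromosome 6 and was 15.4% on X. None of these differences was tested.

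Of the 77 member promoters on X, the maternal PN5 list held 35 (45.5%, exact 95% interval 34.1 to 57.2) and the maternal PN3 list 23 (29.9%, 20.0 to 41.4), while the paternal lists held 7 at each time (9.09%, 3.73 to 17.8). On autosomes the maternal shares were 32.1% at PN5 and 27.9% at PN3, and the paternal PN3 share was 23.1%, while the paternal PN5 list held 395 of 2630 (interval 13.7 to 16.4). Only part of the paternal pronuclei carry an X, and the shares of the parental genomes are not comparable there. The shares of all promoter-class sites on X in these lists were not computed. The values on X are therefore not shown to be particular to member promoters.

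The pronuclear sites at member promoters had the same median widths as their whole lists, 170 bp at PN3 and 190 bp at PN5. The share of wide sites was somewhat higher than in the whole list for maternal PN5 and close to it for the others. These differences were not tested. Of the maternal PN5 sites that overlapped a member promoter, 38.4% were at least 200 bp wide (interval 35.1 to 41.7), against 34.4% of the whole list, and the medians were both 190 bp. For the maternal PN3 list the shares were 26.1% (23.0 to 29.4) and 25.0%. They were 32.3% (28.6 to 36.2) and 31.5% for paternal PN3, and 34.5% (29.8 to 39.4) and 32.8% for paternal PN5. Member promoters in no pronuclear list had a median width of 230 bp (1447 sites) and those in all 4 lists one of 210 bp (207 sites).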
